A study of Mus musculus with 4 samples.

Results

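The 10 genes described here are those that astrocytes, the star-shaped support cells of the brain, rely on for much of their known work: Aldh1l1, Aldoc, Slc1a2, Slc1a3, Aqp4, Gja1, Apoe, Clu, Sparc and Sparcl1. They were chosen by name, as 10 of the 36528 gene rows in each of 4 count tables, and all 10 had a row. Cells of the cortex were taken from C57BL/6 mouse embryos at E16.5 (embryonic age in days), freed with papain, and profiled by droplet single-cell RNA sequencing that counts the 3′ ends of transcripts. There were 2 libraries of the genotype HET and 2 of the genotype COP1 KO, each a separate sample, and the labels do not say whether a sample came from 1 embryo or from several. What HET stands for and which part of the gene was deleted are not stated in the labels. Titles abbreviate COP1 KO as CKO but name no Cre driver, so which cells lost the gene is not known here. COP1 is a subunit of E3 ubiquitin ligases known for marking transcription factors such as JUN and the ETV family for destruction.

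At this age the cortex holds few finished astrocytes. Its radial glia, the stem cells that line the ventricle and first make neurons, already use many astrocyte genes and are the cells from which cortical astrocytes later arise. Aldh1l1 encodes a folate enzyme widely used as an astrocyte marker, and Aldoc encodes the brain form of the glycolytic enzyme aldolase. Slc1a2 (GLT-1) and Slc1a3 (GLAST) encode the transporters that clear glutamate, Aqp4 the water channel of astrocyte end-feet, and Gja1 the gap junction protein connexin 43. Apoe and Clu encode apolipoproteins that carry lipids outside cells. Sparc and Sparcl1 (hevin) encode secreted matricellular proteins that, from astrocytes, are known to act against each other on synapse formation.

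The stretch just before the start site is printed for 4 members that passed a genotype test in a cell class (Sparc, Aldh1l1, Aldoc and Slc1a3) and for Gja1, whose genotype effect differed between a pair of classes. RefSeq promoter windows for GRCm38.p6 matched 7 of the 10 members, and the entries for Aqp4, Clu and Sparcl1 were missing. Each line gives the 250 bases that end at the base before a RefSeq start site, 5′ to 3′ on the gene's strand, for Sparc (chr11:55420081-55420330, minus strand), Aldh1l1 (chr6:90550543-90550792, plus strand), the upstream start site of Aldoc (chr11:78322823-78323072, plus strand), Slc1a3 (chr15:8710808-8711057, minus strand) and Gja1 (chr10:56377050-56377299, plus strand). Capitals mark matches, on either strand, to 5 motifs searched by their letters.
Sparc: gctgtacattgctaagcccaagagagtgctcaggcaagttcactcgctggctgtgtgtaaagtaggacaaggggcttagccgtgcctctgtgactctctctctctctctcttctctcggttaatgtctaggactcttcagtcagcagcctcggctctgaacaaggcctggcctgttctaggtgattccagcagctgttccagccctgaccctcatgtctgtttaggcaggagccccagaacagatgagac
Aldh1l1: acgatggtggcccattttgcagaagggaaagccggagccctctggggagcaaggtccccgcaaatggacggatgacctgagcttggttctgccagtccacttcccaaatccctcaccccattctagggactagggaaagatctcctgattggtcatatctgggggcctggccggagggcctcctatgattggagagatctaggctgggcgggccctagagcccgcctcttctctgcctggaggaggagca
Aldoc: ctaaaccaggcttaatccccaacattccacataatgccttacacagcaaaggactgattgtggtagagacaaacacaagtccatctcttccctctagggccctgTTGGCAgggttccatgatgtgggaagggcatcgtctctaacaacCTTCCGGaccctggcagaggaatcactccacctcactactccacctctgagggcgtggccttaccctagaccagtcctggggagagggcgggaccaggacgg
Slc1a3: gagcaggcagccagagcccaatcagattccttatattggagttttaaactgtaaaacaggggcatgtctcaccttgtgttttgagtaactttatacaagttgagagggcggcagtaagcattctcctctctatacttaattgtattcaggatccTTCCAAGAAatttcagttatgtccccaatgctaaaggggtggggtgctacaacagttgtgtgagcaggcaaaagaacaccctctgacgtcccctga
Gja1: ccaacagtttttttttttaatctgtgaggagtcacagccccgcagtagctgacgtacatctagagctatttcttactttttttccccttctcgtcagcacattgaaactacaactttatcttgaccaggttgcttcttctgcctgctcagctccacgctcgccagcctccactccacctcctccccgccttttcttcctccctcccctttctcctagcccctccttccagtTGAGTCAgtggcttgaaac
The motifs were the AP-1 motif TGANTCA, which JUN proteins bind, the JUN and ATF motif TGACGTCA, the ETS motif CCGGAAG, the STAT motif TTCNNNGAA and the NFI half-site TTGGCA. They were present in 6.75%, 1.55%, 6.91%, 7.02% and 12.3% of the 32851 RefSeq windows of the same length. The windows of Sparc and Aldh1l1 held none of these letters. That of Gja1 held TGAGTCA, an AP-1 match, 19 bases before the start site. That of Slc1a3 held TTCCAAGAA, a STAT match, 96 bases before it, and that of Aldoc held TTGGCA and, on the other strand of the ETS motif, CTTCCGG. The window of another Aldoc start site, not printed, held 2 STAT matches, TTCAGTGAA and TTCCAGGAA, 124 and 83 bases before that site. A match is a run of letters and does not show that a factor binds there.

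The deposited tables summed to 28049007 to 28988265 counts a library, with 4422 to 5354 cell barcodes each, of which 22 to 40 were shared between any pair of libraries. After filters 18787 cells remained, 4318 to 5195 a library, with median counts per cell of 4505 to 5476. Over all genes COP1 KO 1 stood apart: its chi-square per degree of freedom against the other libraries was 18.7 to 24.1, where the other pairs had 10.3 to 12.9. The targeted gene is listed under its older symbol Rfwd2, at 32.0 and 39.0 CPM (counts scaled to the library total) in HET and 30.5 and 29.7 CPM in COP1 KO. Its log2 difference was -0.21 (edgeR adjusted p = 0.532), and counts of 3′ ends do not test a deletion elsewhere in the gene, so the labels are not checked by it. Cells were clustered with the 10 members taken out, and clusters were named by markers that held no member. The radial-glia-like class, on which most results rest, had 284 and 309 cells in the HET libraries against 390 and 344 in the COP1 KO libraries, in a non-dividing cluster (cluster 9) and a dividing cluster (cluster 16). All 15 radial glia markers were detected in both. No cluster was named astrocyte, since the marker lists held no such type.

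Across 12 named cell classes, with the genotypes pooled, Aldh1l1, Aldoc and Clu had their highest mean level in radial-glia-like cells. Apoe, Gja1, Sparc and Sparcl1 had theirs in immune, meningeal or vessel classes. Slc1a2, Slc1a3 and Aqp4 were highest in oligodendrocyte-precursor-like cells, with ranges that overlapped those of radial-glia-like cells. That class also carried radial glia markers, and radial glia was its second-scoring type (1.75 against 3.58). The 15 radial glia markers summed to 19485 to 25318 CPM in its libraries, against 24487 to 26455 CPM in radial-glia-like cells. Levels are given as mean CPM ± SD over the 4 libraries, with a class sum of at least 5 cells in every library. The 2 enzymes were the most restricted. Aldh1l1 stood at 165 ± 70.9 CPM in radial-glia-like cells, with a range of 95.4 to 229, and at 134 ± 26.6 in oligodendrocyte-precursor-like cells. These ranges overlapped, but the order differed by genotype. The HET libraries were at 95.4 and 113 CPM in radial-glia-like cells and, higher, at 128 and 144 CPM in oligodendrocyte-precursor-like cells. The COP1 KO libraries were at 229 and 223 CPM in radial-glia-like cells and at 102 and 165 CPM in oligodendrocyte-precursor-like cells. The mean of every other class was at or below 3.79 CPM. Radial-glia-like cells held 76.3% of the kept Aldh1l1 counts (mean of 4 libraries). Aldoc stood at 653 ± 151 CPM in radial-glia-like cells and at 270 ± 60.5 CPM in oligodendrocyte-precursor-like cells without overlap, followed by microglia-like cells at 19.1 ± 13.2 CPM. The classes below them down to Cajal-Retzius-like cells, the early-born neurons of the cortical surface, were at 1.53 to 13.5 CPM.

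**Figure D1:**
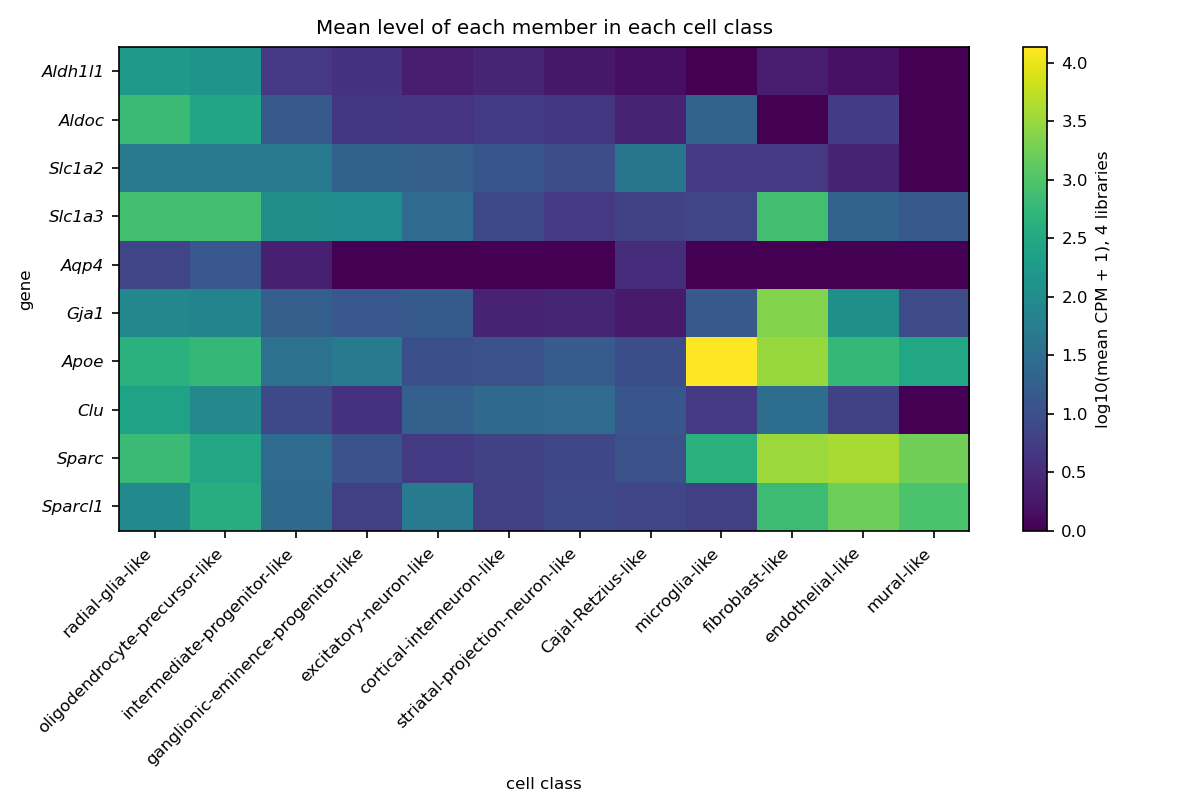
Heat map of the mean CPM over the 4 libraries for each of the 10 members (rows) in each of the 12 cell classes (columns), coloured by log10(mean CPM + 1) from dark (low) to yellow (high). Aldh1l1 and Aldoc are high in radial-glia-like and oligodendrocyte-precursor-like cells, while Apoe is highest in microglia-like cells, Gja1 in fibroblast-like cells, and Sparc and Sparcl1 in endothelial-like cells.

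The glutamate transporters differed in reach. Slc1a3 was at 792 ± 156 CPM in oligodendrocyte-precursor-like cells, 775 ± 65.3 in radial-glia-like cells and 759 ± 121 in fibroblast-like cells, 3 classes whose ranges overlapped. Intermediate-progenitor-like cells (110 ± 37.8 CPM) and ganglionic-eminence-progenitor-like cells (102 ± 69.1 CPM), the precursors of excitatory and of inhibitory neurons, came next and overlapped with the genotypes pooled. Within each genotype they did not overlap, and the order turned. The HET libraries were at 66.5 and 89.3 CPM in intermediate-progenitor-like cells and at 33.7 and 52.0 CPM in ganglionic-eminence-progenitor-like cells. The COP1 KO libraries were at 138 and 144 CPM against 171 and 150 CPM. Among the named classes Slc1a2 was low and spread out. It had 49.7 ± 24.8 CPM in oligodendrocyte-precursor-like, 47.9 ± 5.71 in radial-glia-like, 46.7 ± 6.22 in intermediate-progenitor-like and 38.8 ± 6.88 in Cajal-Retzius-like cells, all overlapping in that order. The unnamed cluster 22, outside this ranking, was above all named classes in every library, with its values given in the last paragraph. In the contrast against radial-glia-like cells, Slc1a2 passed no threshold in intermediate-progenitor-like cells (log2 -0.07, SE 0.147, edgeR adjusted p = 0.702). Only 13.9% of its counts lay in radial-glia-like cells, while the unnamed clusters, most of which scored highest for neuron markers, held 42.8%.

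Of the channels, Aqp4 was near the limit of detection. It had 57 counts in all radial-glia-like cells together, or 6.43 ± 2.45 CPM, and 34 in oligodendrocyte-precursor-like cells, or 12.1 ± 9.74 CPM, with overlapping ranges. No Aqp4 count was found in ganglionic-eminence-progenitor-like cells, where 0 counts allow up to 0.673 CPM at 3 counts over the 4 libraries, a limit that covers counting error only. Gja1 was led by fibroblast-like cells at 2249 ± 189 CPM, which held 48.0% of its counts. Endothelial-like cells (113 ± 23.8 CPM), radial-glia-like cells (83.3 ± 18.1 CPM) and oligodendrocyte-precursor-like cells (73.1 ± 6.31 CPM) followed, each overlapping the next.

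Of the secreted proteins, Apoe, Sparc and Sparcl1 had higher levels in other classes than in radial-glia-like cells. Apoe reached 13597 ± 1680 CPM in microglia-like cells, whose leading genes also include the chemokines Ccl2, Ccl3 and Ccl4, and 3076 ± 451 CPM in fibroblast-like cells. Oligodendrocyte-precursor-like (564 ± 398 CPM), endothelial-like (559 ± 25.03 CPM) and radial-glia-like cells (431 ± 148 CPM) overlapped below them. Clu was highest in radial-glia-like cells, at 250 ± 47.4 CPM in radial-glia-like cells against 86.3 ± 67.8 CPM in oligodendrocyte-precursor-like cells, without overlap. Sparc was highest in endothelial-like (3909 ± 413 CPM), fibroblast-like (3205 ± 259 CPM) and mural-like cells (1743 ± 527 CPM), the last being the pericytes and smooth muscle of vessels, and radial-glia-like cells came next at 648 ± 320 CPM. Sparcl1 had the same leading class, endothelial-like cells at 1684 ± 348 CPM, and stood at 380 ± 84.0 CPM in oligodendrocyte-precursor-like, 95.3 ± 52.3 in radial-glia-like and 50.6 ± 2.61 in excitatory-neuron-like cells.

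These class differences were tested for the classes with at least 20 cells in every library, with the library as a block. Against radial-glia-like cells, excitatory-neuron-like cells were lower in all 9 members tested, where 77% of all 12222 genes differed in either direction (9414 genes). The count therefore says little about the members. For the members the log2 differences ran from -7.46 for Aldoc (SE 0.115) and -7.19 for Sparc (SE 0.158) to -1.41 for Slc1a2 (SE 0.133). The smallest, Sparcl1 at -0.76 (SE 0.168, edgeR adjusted p = 8.94e-05), depended on the COP1 KO libraries, since in the HET libraries alone it was 0.15 (edgeR adjusted p = 0.256). Oligodendrocyte-precursor-like cells exceeded radial-glia-like cells in Sparcl1 by log2 1.98 (SE 0.184) and were lower in Clu (-1.78, SE 0.211), Aldoc (-1.22, SE 0.0945), Sparc (-1.15, SE 0.133) and Aldh1l1 (-0.39, SE 0.141, edgeR adjusted p = 0.0346), where 26.5% of genes differed. All 9 members tested were lower in ganglionic-eminence-progenitor-like, cortical-interneuron-like and striatal-projection-neuron-like cells, where 54.8%, 70.5% and 72.6% of genes differed in either direction. In intermediate-progenitor-like and Cajal-Retzius-like cells 8 of 9 were lower, all but Slc1a2, where 55.6% and 64.7% of genes differed in either direction. The shares of all genes that were lower are not given here, so these counts say little about the members. The Aldh1l1 difference between oligodendrocyte-precursor-like and radial-glia-like cells did not pass in the HET libraries alone, where it was 0.40 (edgeR adjusted p = 0.180). In those libraries the oligodendrocyte-precursor-like difference was also smaller for Clu (-0.87) and Sparc (-0.63) and larger for Sparcl1 (2.95), and each of these passed.

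Over the 12 classes the genes whose mean log2(CPM + 1) followed a member most closely were named by a rule of the 3 highest Pearson correlations among 11638 candidates, as a description over points that share libraries. Aldh1l1 was followed by Mt3 (r = 0.986), Rhcg (0.982) and Tnc (0.980), and Aldoc by Kcnj10 (0.968), 2810459M11Rik (0.944) and Scrg1 (0.934). For the transporters these were Agfg2 (0.964), Arhgef26 (0.961) and Adgrb1 (0.960) for Slc1a2, and Scara3 (0.971), Bmpr1a (0.947) and Pdpn (0.942) for Slc1a3. For the channels they were Fbxo2 (0.974), Pifo (0.940) and Tmem229a (0.933) for Aqp4, and Slc41a1 (0.924), Tmem64 (0.908) and Plekhg1 (0.902) for Gja1. Apoe was followed by Pmp22 (0.978), Vwa5a (0.973) and Mgmt (0.970), and Clu by B3gat2 (0.943), Csmd1 (0.902) and Psmg1 (0.891). Sparc was followed by Zyx (0.970), Nr2f6 (0.968) and Xylt2 (0.967), and Sparcl1 by Nkd1 (0.942), Pcx (0.940) and Fkbp10 (0.938). Among the members themselves the closest pair was Aldh1l1 and Aldoc (r = 0.931) and the most opposed was Slc1a2 and Sparc (r = -0.587).

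The main comparison by genotype was made in radial-glia-like cells, where 4 members were higher in COP1 KO and 1 was lower. Sparc, Sparcl1 and Aldh1l1 rose by more than 2-fold, Clu rose by less, and Aldoc fell, while the transporters and channels did not pass the threshold. In this comparison 404 of 11533 genes tested passed an edgeR adjusted p of 0.05, which is 3.5%, with 2.36% higher and 1.14% lower. Of the 10 members, all tested, 5 passed. At an unadjusted p under 0.05 there were 7, where 15.3% of all genes were under it. The median log2 difference of the members was 0.50, and that of all genes tested was -0.00.

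The matricellular genes showed the clearest differences. Sparc was at 380 and 364 CPM in the HET libraries and at 953 and 896 CPM in the COP1 KO libraries. Both COP1 KO libraries were far above both HET libraries, with a spread within each genotype that was small beside the gap. The log2 difference was 1.36 (SE 0.0858, edgeR adjusted p = 2.59e-05), and it passed in all 16 alternatives run, at 1.17 to 1.44. Sparcl1 was at 54.9 and 48.9 CPM in HET and at 120 and 157 CPM in COP1 KO. Its groups did not overlap, and the COP1 KO libraries differed more from each other than the HET libraries did. Its log2 difference was 1.47 (SE 0.145, edgeR adjusted p = 0.000404), and it too passed in all 16 alternatives, at 1.25 to 1.63.

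The 2 enzymes went in opposite directions. Aldh1l1 was at 95.4 and 113 CPM in HET and at 229 and 223 CPM in COP1 KO, a log2 difference of 1.17 (SE 0.102, edgeR adjusted p = 0.000195) that passed in all 16 alternatives, at 0.99 to 1.30. Aldoc was at 782 and 784 CPM in HET and at 541 and 504 CPM in COP1 KO. Here the HET libraries were the high ones, with nearly the same value in both. The log2 difference was -0.53 (SE 0.0838, edgeR adjusted p = 0.00692). Without HET 2 the edgeR adjusted p for Aldoc was 0.0842, and with no doublets removed it was 0.0524.

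Clu was at 192 and 231 CPM in HET and at 292 and 286 CPM in COP1 KO, a log2 difference of 0.50 (SE 0.0949, edgeR adjusted p = 0.0177). The groups did not overlap, but the call was less steady than those above. Its adjusted p was 0.208 without HET 1, 0.0852 by DESeq2, 0.127 at a coarser clustering and 0.223 in the non-dividing cluster alone. Apoe, the other apolipoprotein, was at 346 and 653 CPM in HET and at 353 and 372 CPM in COP1 KO. A single HET library, HET 2, was high, and the other 3 were alike. Its log2 difference was -0.41 (SE 0.216, edgeR adjusted p = 0.409), which without HET 2 was 0.12 (edgeR adjusted p = 0.776). It passed without HET 1, at -0.79 (edgeR adjusted p = 0.00411), without COP1 KO 2, at -0.43 (edgeR adjusted p = 0.00055), and with no filter on low counts, at -0.40 (edgeR adjusted p = 0.000573).

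**Figure D2:**
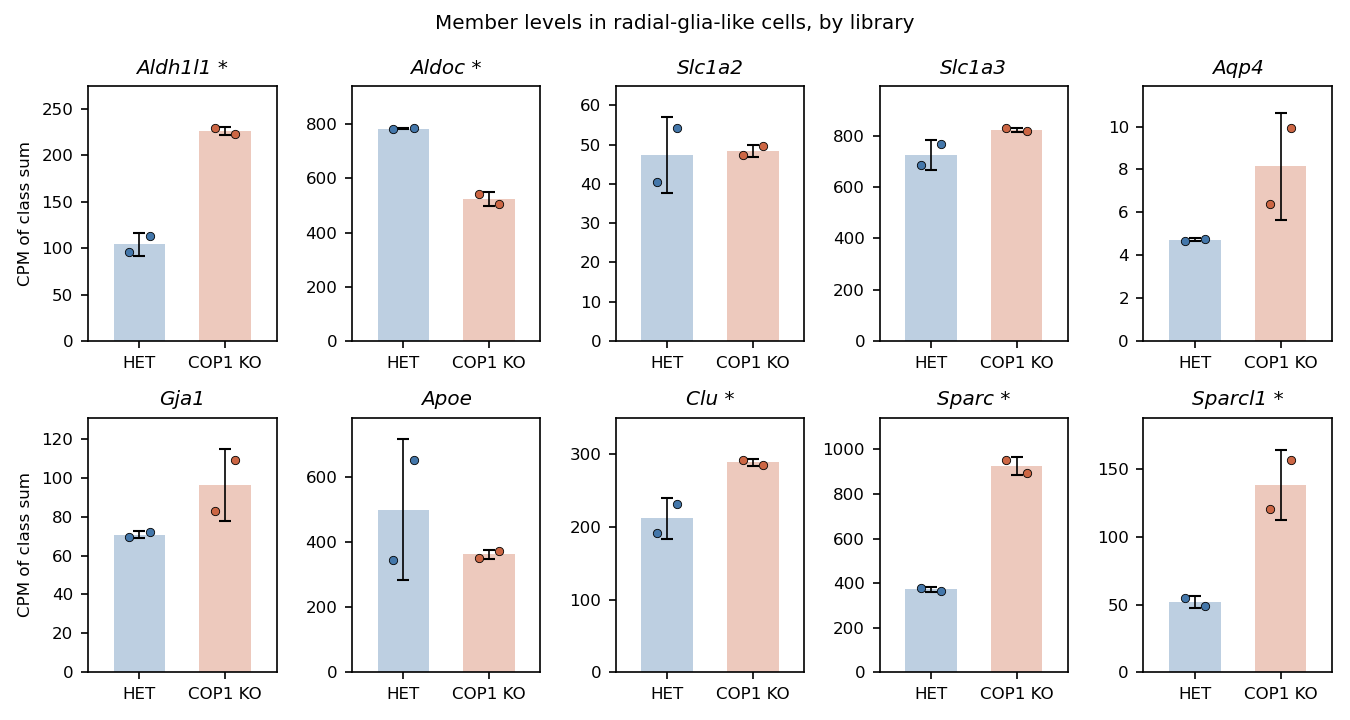
CPM of each member in the radial-glia-like cells of the 4 libraries (1 point per library, bars for the group mean, error bars of 1 SD, each panel with its own scale from 0, and an asterisk beside genes with an edgeR adjusted p under 0.05). The HET and COP1 KO points are apart for Sparc, Sparcl1, Aldh1l1 and Clu, with COP1 KO higher, and for Aldoc, with COP1 KO lower, and HET 2 is the high library for Apoe.

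The transporters and channels did not pass. Slc1a3 was at 686 and 769 CPM in HET and at 829 and 818 CPM in COP1 KO (log2 0.23, SE 0.0860, edgeR adjusted p = 0.221), with no overlap but a gap smaller than the spread between the HET libraries, and it passed without COP1 KO 2 (0.0336). Slc1a2 was at 40.4 and 54.1 CPM in HET and at 47.4 and 49.6 CPM in COP1 KO, with the COP1 KO libraries inside the HET range (log2 0.08, SE 0.176, edgeR adjusted p = 0.890). Gja1 was at 69.4 and 71.9 CPM in HET and at 83.0 and 109 CPM in COP1 KO (log2 0.49, SE 0.142, edgeR adjusted p = 0.110), and its adjusted p was 0.00186 without COP1 KO 1 and 0.0116 with no filter on low counts. Aqp4 was at 4.66 and 4.76 CPM in HET and at 6.38 and 9.91 CPM in COP1 KO (log2 0.84, SE 0.402, edgeR adjusted p = 0.365). At this depth an Aqp4 difference of that size was not detectable beyond its error.

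Markers of radial glia and of other cell types were summed in the same cells, and their part in the members' differences was not tested. The share of all genes tested in these cells was 2.36% higher and 1.14% lower. Of the 15 radial glia markers, 3 were higher (Dbi, Tnc and Vim) and 5 lower (Fabp7, Gas1, Hes1, Pax6 and Ttyh1), and their summed level was 25515 and 26455 CPM in HET and 25747 and 24487 CPM in COP1 KO. Of 10 oligodendrocyte precursor markers, 4 were tested and 3 were higher (Olig1, Olig2 and C1ql1). Their sum was 202 and 188 CPM in HET and 259 and 303 CPM in COP1 KO, and 2 of the 10 had no count in any library. Sums of the 9 endothelial markers were 7.77 and 9.09 CPM in HET and 15.05 and 12.1 CPM in COP1 KO, and those of the 14 microglia markers were 23.3 and 29.0 CPM against 18.2 and 24.1 CPM. The fibroblast markers summed to 28.0 and 25.6 CPM against 26.9 and 58.2 CPM, and the mural markers to 45.1 and 59.8 CPM against 51.1 and 72.0 CPM with 1 of 4 tested higher. Hemoglobin and other red cell markers summed to 175 and 154 CPM in HET and to 2299 and 2127 CPM in COP1 KO, with 4 of 4 tested markers higher. Hemoglobin made up at least 1% of counts in no HET cell of the class, in 3 cells of COP1 KO 1 and in 1 cell of COP1 KO 2. Without such cells the same 5 members passed, with Sparc at log2 1.37 and Sparcl1 at 1.47. The 19 erythroid-like cells held no Sparc, Aldoc or Clu count, which allows up to 18.3 CPM. They held at most 0.408% of a library's kept Aldh1l1 counts and at most 0.0512% of its Sparcl1 counts.

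The dividing and the non-dividing radial-glia-like cells showed the same order for these genes, as the plot of levels by cluster shows. Sparc was at 370 and 398 CPM in HET and 952 and 904 CPM in COP1 KO in the non-dividing cluster, and at 390 and 328 CPM against 954 and 886 CPM in the dividing cluster. Aldoc was higher in non-dividing cells, at 994 and 939 CPM in HET against 642 and 597 CPM in COP1 KO, than in dividing cells, at 595 and 615 CPM against 386 and 393 CPM. With the clusters tested alone, the log2 difference of Sparc was 1.33 and 1.40 in the non-dividing and the dividing cluster, that of Sparcl1 1.36 and 1.55, that of Aldh1l1 1.03 and 1.30, and that of Aldoc -0.59 and -0.59, and each passed. The difference between the clusters was not tested. Cell numbers were 173 and 195 (HET) against 278 and 238 (COP1 KO) in the non-dividing cluster, and 111 and 114 against 112 and 106 in the dividing cluster.

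**Figure D3:**
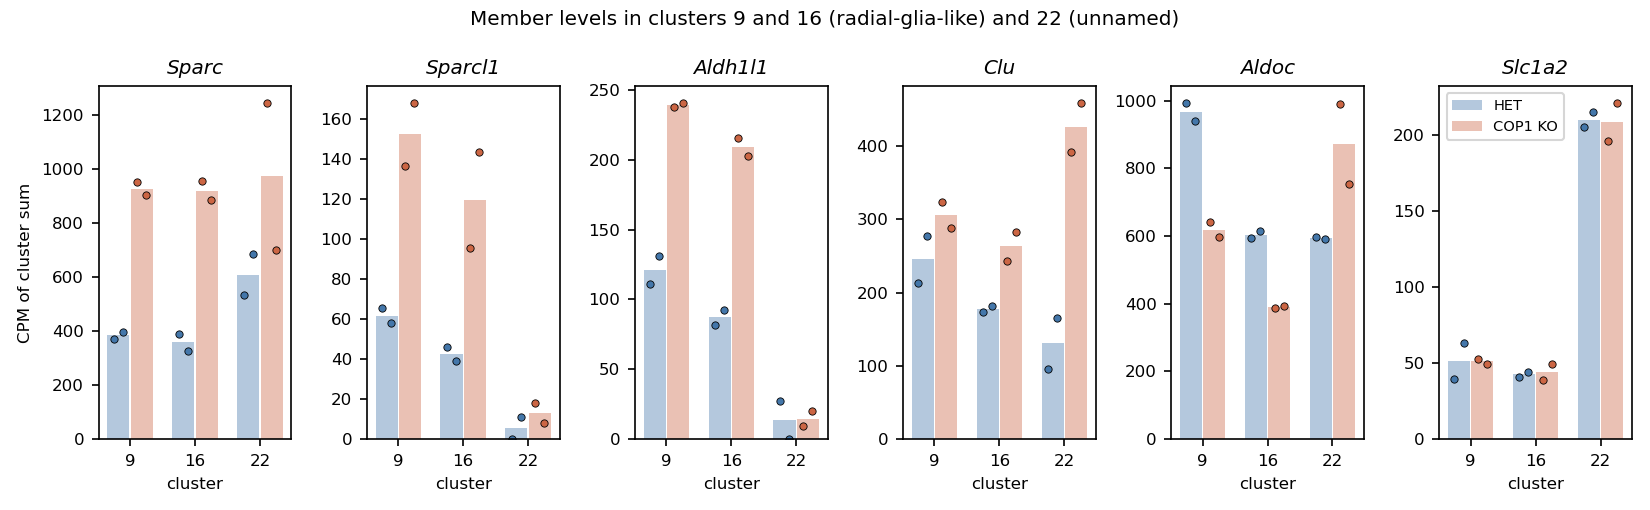
CPM of 6 members in clusters 9 (non-dividing radial-glia-like), 16 (dividing radial-glia-like) and 22 (unnamed), with 1 point per library and bars for the mean of each genotype. Sparc, Sparcl1 and Aldh1l1 are higher in COP1 KO in clusters 9 and 16, and Aldoc is lower there but not in cluster 22.

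Shares of cells with at least 1 molecule were taken after thinning each cell to 2000 counts so that depth is equal. They gave the same order for Sparc, Aldh1l1, Sparcl1 and Aldoc, while those of Clu overlapped between genotypes. In this setting 1 of 1327 radial-glia-like cells was too shallow and was left out. Sparc was detected in 39.4% and 36.9% of HET cells and in 69.2% and 63.1% of COP1 KO cells, against 0.430% to 1.202% of excitatory-neuron-like cells. The latter were taken as the level of free RNA, an assumption that was not tested. Their median counts before thinning were 4923.5 to 6413, where radial-glia-like cells had 5001.5 to 6464. Aldh1l1 was detected in 14.8% and 16.505% of HET cells and in 30.3% and 32.0% of COP1 KO cells, with at most 0.400% in excitatory-neuron-like cells. Sparcl1, which excitatory-neuron-like cells also express (6.82% to 7.81% of them), was detected in 9.15% and 6.15% of HET and in 16.7% and 20.1% of COP1 KO radial-glia-like cells. In HET its share was thus close to that of the neurons. Aldoc was detected in 63.4% and 64.1% of HET and in 48.8% and 49.4% of COP1 KO cells, so both more and less frequent detection occurred among the members. Without thinning the shares were 63.4% and 62.8% against 82.8% and 80.8% for Sparc, 26.4% and 31.1% against 50.8% and 57.0% for Aldh1l1, 17.6% and 13.9% against 26.9% and 31.1% for Sparcl1, and 77.8% and 80.9% against 66.9% and 69.2% for Aldoc. The Clu shares overlapped, at 24.6% and 29.4% for HET against 30.6% and 29.4% for COP1 KO after thinning. Without thinning the mean Clu share was lower in COP1 KO than in HET. With 2 libraries a genotype the smallest two-sided p of an exact permutation test is 0.333, and these shares are given as a description. After thinning to 2000 counts the mean number of members detected per radial-glia-like cell was 2.79 ± 0.125 in HET and 3.20 ± 0.135 in COP1 KO (SD, n = 2). Cells with 5 or more of the 10 made up 13.9% ± 2.27 in HET and 22.7% ± 4.87 in COP1 KO. Such cells made up 51.7% ± 6.45 and 58.3% ± 6.32 without thinning, and 3.69% ± 0.734 and 5.20% ± 0.461 after thinning to 1000 counts.

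**Figure D4:**
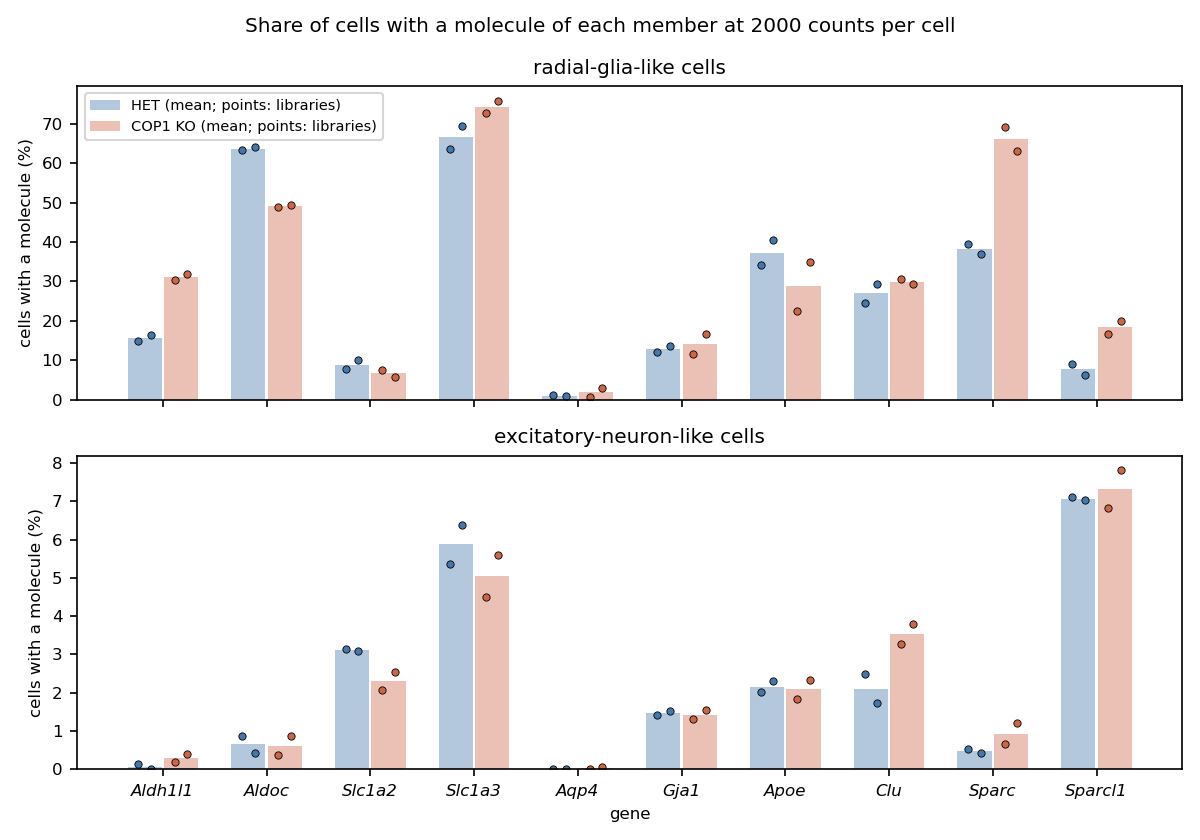
Percent of cells with at least 1 molecule of each member after thinning to 2000 counts per cell, in radial-glia-like cells (upper panel) and excitatory-neuron-like cells (lower panel, with its own scale), with 1 point per library and bars for the mean of each genotype. In radial-glia-like cells Sparc, Sparcl1 and Aldh1l1 are detected more often and Aldoc less often in COP1 KO.

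In 2 other progenitor classes Slc1a3 was the only member that passed. In ganglionic-eminence-progenitor-like cells it was at 33.7 and 52.0 CPM in HET and at 171 and 150 CPM in COP1 KO, a log2 difference of 1.92 (SE 0.189, edgeR adjusted p = 8.59e-05). The COP1 KO libraries were about as far apart as the HET libraries and well above them, and the call held in all 14 alternatives, at 1.66 to 2.29. Here 5 members were tested and 1 passed, where 0.303% of 9569 genes passed, 0.272% higher and 0.0314% lower. At an unadjusted p under 0.05 there were 3 members and 7.53% of genes. Sparc was at 5.61 and 2.64 CPM against 18.1 and 14.97 CPM (log2 2.06, SE 0.495, edgeR adjusted p = 0.141), and it passed with no filter on low counts (0.00518). The share of these cells with an Slc1a3 molecule after thinning was 2.88% and 9.16% for HET against 18.6% and 17.8% for COP1 KO, with 15 and 5 COP1 KO cells too shallow and left out, and 9.62% and 15.6% against 26.9% and 25.5% without thinning. In excitatory-neuron-like cells the Slc1a3 share was 4.51% to 6.38% after thinning and 10.1% to 13.8% without. The ganglionic-eminence-progenitor-like share in HET 1 was below these in both settings. For Slc1a3 the excitatory-neuron-like cells do not serve as a level of free RNA. They stood at 27.3 ± 3.14 CPM, where striatal-projection-neuron-like cells stood at 3.79 ± 1.01 CPM without overlap. Median counts before thinning were 3188 to 4051.5 in ganglionic-eminence-progenitor-like cells. The 15 radial glia markers summed to 2736 and 2964 CPM in HET and to 3869 and 3049 CPM in COP1 KO in the same cells, with 1 marker lower (Hes5) and none higher, and red cell markers to 196 and 135 CPM against 2366 and 2602 CPM. The part of these markers in the Slc1a3 difference was not tested. With cells of at least 1% hemoglobin counts left out, the Slc1a3 difference was log2 1.90 (edgeR adjusted p = 0.000319).

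In intermediate-progenitor-like cells Slc1a3 was at 66.5 and 89.3 CPM in HET and at 138 and 144 CPM in COP1 KO (log2 0.90, SE 0.148, edgeR adjusted p = 0.0442). Of 8 members tested 1 passed, where 0.46% of 10647 genes passed, 0.394% higher and 0.0657% lower. At an unadjusted p under 0.05 there were 4 members and 10.6% of genes. The call was lost without HET 1 (edgeR adjusted p = 0.261), with the members kept in the clustering (0.0625) and at a coarser clustering (0.213). Sparc was at 17.0 and 15.3 CPM in HET against 42.9 and 32.4 CPM in COP1 KO (log2 1.27, edgeR adjusted p = 0.0683), and Sparcl1 at 14.8 and 19.2 CPM against 40.1 and 31.0 CPM (log2 1.11, edgeR adjusted p = 0.129). Neither overlapped between genotypes, and both were far below the radial-glia-like level. Sparc passed in 5 of 14 alternatives and Sparcl1 in 2, among them both with no filter on low counts (0.000199 and 0.00245) and both without COP1 KO 2. The radial glia markers summed to 3186 and 3065 CPM in HET and 4039 and 3536 CPM in COP1 KO there, with Dbi and Nes higher, and their part was not tested.

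No member passed in the other 4 classes tested by genotype, and Cajal-Retzius-like cells and the smaller classes were not tested that way. In excitatory-neuron-like cells 0 of 9 members passed, where 0% of 13384 genes passed. At an unadjusted p under 0.05 there were 5 members and 9.53% of genes, and by DESeq2 0 members and 0.291% of genes. Sparcl1 there was at 52.0 and 53.3 CPM in HET and at 47.3 and 49.8 CPM in COP1 KO (log2 -0.08, SE 0.0718, edgeR adjusted p = 0.717), and Gja1 at 16.7 and 15.5 CPM against 10.9 and 12.2 CPM (log2 -0.45, SE 0.129, edgeR adjusted p = 0.489). Sparc, at 2.52 and 2.26 CPM against 4.47 and 6.72 CPM, had a log2 difference of 1.26 (SE 0.273, edgeR adjusted p = 0.380) that passed without COP1 KO 1 alone among the alternatives (0.0170), at levels taken above as free RNA. In cortical-interneuron-like cells 0 of 3 members passed and in striatal-projection-neuron-like cells 0 of 4, where 0.0109% and 0.00971% of genes passed. In each, 0 members were at an unadjusted p under 0.05, where 5.54% and 6.48% of genes were, and 0 passed by DESeq2, where 0.0218% and 0.0194% of genes did. In oligodendrocyte-precursor-like cells 0 of 9 passed, where 0.149% of genes passed, 0.0248% higher and 0.124% lower. At an unadjusted p under 0.05 there were 2 members and 9.38% of genes, and by DESeq2 0 members and 0.186% of genes. The class held 35 and 35 HET cells against 115 and 140 COP1 KO cells, and 43.5% to 65.7% of its cells held a molecule of Pdgfra or Sox10, which mark committed precursors. Apoe in it was at 1111 and 352 CPM in HET and 203 and 589 CPM in COP1 KO, and Clu at 177 and 54.7 CPM against 19.8 and 93.2 CPM, both with overlapping groups. Without COP1 KO 2 both passed in this class, with log2 differences of -1.91 for Apoe and -2.58 for Clu, and Apoe also passed with no filter on low counts (log2 -0.83, edgeR adjusted p = 0.0058).

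**Figure D5:**
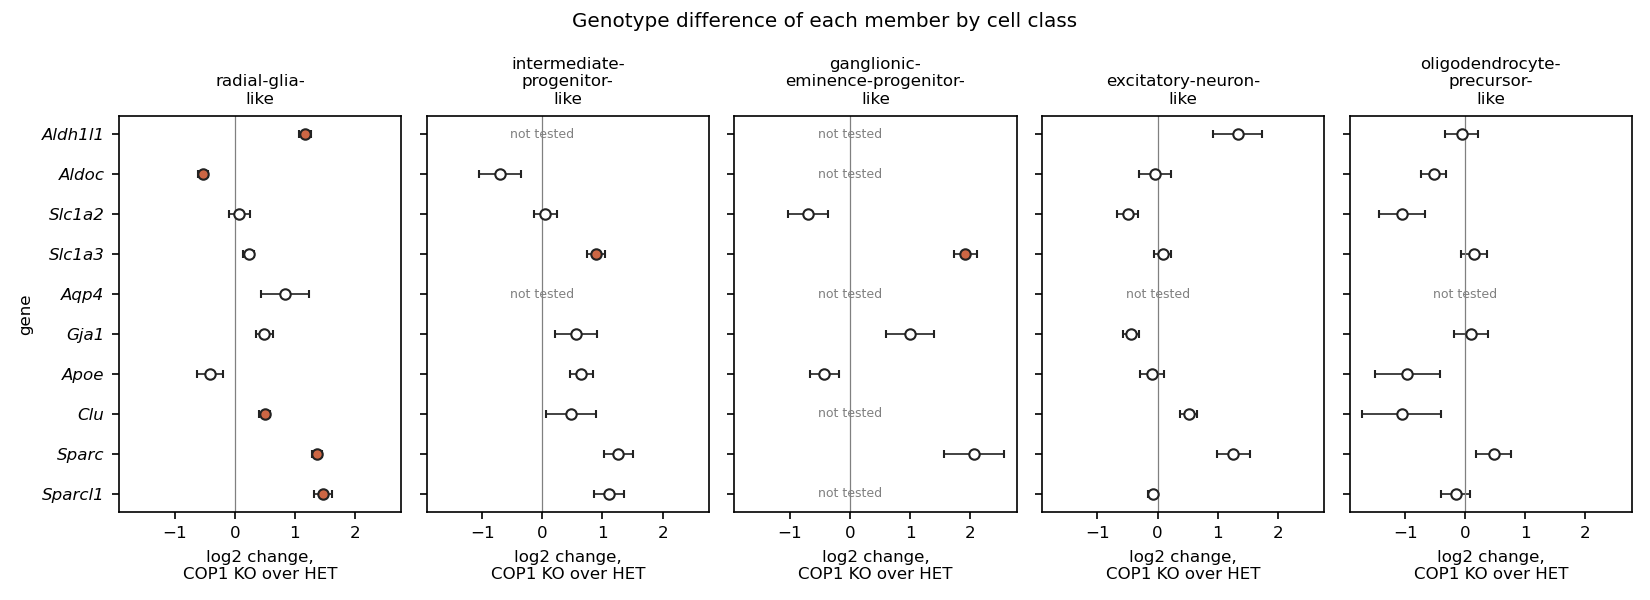
Log2 difference (COP1 KO minus HET) of each member in 5 cell classes (panels), with error bars of 1 SE, filled points for an edgeR adjusted p under 0.05 and the words not tested where a gene was too low. Sparcl1 lies at 1.47 in radial-glia-like and at -0.08 in excitatory-neuron-like cells, and Slc1a3 lies highest in ganglionic-eminence-progenitor-like cells at 1.92.

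Whether the genotype effect itself differed between classes was tested as an interaction, with each library as a block. For radial-glia-like against excitatory-neuron-like cells 2 of 10 members passed, where 2.69% of 14004 genes did. The genotype effect on Sparcl1 was larger in radial-glia-like cells by log2 1.57 (SE 0.140, edgeR adjusted p = 6.25e-20), and that on Gja1 by 0.94 (SE 0.180, edgeR adjusted p = 5.12e-05), and both passed with each library left out in turn. For Sparc the difference was 0.11 (SE 0.274, edgeR adjusted p = 0.947), for Aldh1l1 -0.14 (SE 0.414, edgeR adjusted p = 0.955) and for Clu -0.01 (SE 0.136, edgeR adjusted p = 0.994). For Aldh1l1 and Sparc the contrast does not show whether the genotype effect differs, since their levels in excitatory-neuron-like cells were low. They were at 1.76 CPM or less and 6.72 CPM or less there, and whether those counts are free RNA was not tested. For radial-glia-like against oligodendrocyte-precursor-like cells 1 of 10 members passed, where 0.119% of 11777 genes did. It was Sparcl1, at 1.59 (SE 0.229, edgeR adjusted p = 0.0362), and the call was lost without COP1 KO 1 (0.209) and without COP1 KO 2 (0.194).

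In whole-library sums, where a change in cell numbers and a change per cell cannot be told apart, 0 of 10 members passed, where 0.0118% of 16978 genes passed. At an unadjusted p under 0.05 there were 4 members and 10.5% of genes, and by DESeq2 3 members and 1.05% of genes. Aldh1l1 was at 8.99 and 12.1 CPM in HET and at 23.7 and 26.5 CPM in COP1 KO (log2 1.27, SE 0.157, edgeR adjusted p = 0.117). It had the largest gap of the 10 relative to its spread. Sparc was at 97.3 and 127 CPM against 197 and 181 CPM (log2 0.78, edgeR adjusted p = 0.199), and Slc1a3 at 83.5 and 108 CPM against 135 and 141 CPM (log2 0.56, edgeR adjusted p = 0.269). These 3 passed by DESeq2 and without COP1 KO 2. Clu was at 38.2 and 41.9 CPM against 49.3 and 55.6 CPM (log2 0.41, edgeR adjusted p = 0.248), and with Aldh1l1 and Gja1 it passed without COP1 KO 1. Aldoc, Apoe, Aqp4, Gja1, Slc1a2 and Sparcl1 had log2 differences from -0.21 to 1.06 with adjusted p-values of 0.491 or more. In the sum of neural cells alone Sparc had a log2 difference of 1.43 and passed (edgeR adjusted p = 0.0323), where endothelial-like, fibroblast-like and mural-like cells no longer contribute.

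Genes related to the members were counted from 4 lists in the radial-glia-like comparison. Of all genes tested there, 2.36% were higher and 1.14% lower. Of 30 other astrocyte genes 25 were tested, with 2 higher and 2 lower and a median log2 difference of 0.01. Gfap, the intermediate filament of astrocytes, was at 10.4 and 9.96 CPM in HET and at 79.8 and 105 CPM in COP1 KO (log2 3.23, SE 0.207, edgeR adjusted p = 2.77e-05). Both COP1 KO libraries stood far above both HET libraries. F3, tissue factor, was at 31.1 and 32.0 CPM against 114 and 94.8 CPM (log2 1.77, SE 0.156, edgeR adjusted p = 0.000196). Kcnj10, the inward rectifier potassium channel of astrocytes and the gene closest to Aldoc across classes, fell like Aldoc, from 41.5 and 35.9 CPM to 18.7 and 21.98 CPM (log2 -0.87, SE 0.195, edgeR adjusted p = 0.0388), as did Mmd2 (log2 -0.38, SE 0.0896, edgeR adjusted p = 0.0484). In that list, then, as among the members, genes of both directions were called.

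Of 24 relatives of the members in the same gene families 8 were tested, with 2 higher, 0 lower and a median of 0.46. Aldoa, the ubiquitous aldolase, was at 263 and 276 CPM in HET and at 424 and 429 CPM in COP1 KO (log2 0.71, SE 0.0780, edgeR adjusted p = 0.000692), against the direction of its brain paralog Aldoc. Fstl1, a secreted protein of the SPARC family, had a log2 difference of 0.48 (SE 0.0872, edgeR adjusted p = 0.0142). Of 13 genes for lipoprotein receptors and lipid export 10 were tested and 0 passed, with a median of 0.10. Among those with the lowest p were Sorl1 (log2 0.96, edgeR adjusted p = 0.0866) and Vldlr (0.83, edgeR adjusted p = 0.205), receptors that bind Apoe-bearing particles. Of 14 other secreted or surface factors with which astrocytes act on synapses 11 were tested, with 5 higher, 0 lower and a median of 0.29. Those higher included Tgfb2 (log2 0.77, edgeR adjusted p = 0.000692), Tnc (0.79, edgeR adjusted p = 0.00683), Ptn (0.33, edgeR adjusted p = 0.0212) and Mdk (0.43, edgeR adjusted p = 0.0251). Tnc was also on the list of radial glia markers. In whole-library sums none of the genes of these lists passed, and the lowest adjusted p-values were those of Gfap and F3, both 0.0989.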

How the data were processed

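Per the labels' protocols, cells were profiled with the 10x Chromium 3′ kit v2, 1 lane of a HiSeq4000 a library. Per the submitters' processing notes the aligner was GSNAP and the build GRCm38 (mm10). No source used here gives the counter, the annotation or how barcodes were called. The values the authors deposited are raw counts per gene and barcode, not normalized. Of the gene rows, 3065 hold a number in place of a symbol (1.69% of counts), and 51 copies of identical rows were removed, with no member among them. Kept cells had at least 500 genes, at most 10% mitochondrial counts and a doublet score of at most 0.25 (222, 0 and 228 removed). The score was set after seeing the data, since the automatic threshold marked 13 barcodes.

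Counts were scaled to 10000 and log-transformed. From 2000 variable genes without the members, 30 components and 15 neighbours, Leiden clustering at resolution 1.0 gave 28 clusters (scanpy 1.11.5, leidenalg 0.10.2), of which 7 stayed unnamed. A name needed a mean marker score of 0.5, a margin of 0.3 and 3 markers in 10% of cells, thresholds set after seeing the data. It was refused where another type's markers outnumbered the cluster's own among its 10 leading genes. It was also refused where a leading gene was contrary to the type, or where a shallow cluster had no own marker there. Clusters 0 and 7 (1847 and 1057 cells) scored highest for excitatory neuron markers but stayed unnamed, with 0 own and 1 other marker there. Another clustering could move cells between classes. Members, lists and markers were chosen with earlier results of these data known.

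Raw counts were summed per class and library (at least 20 cells in each) and tested with edgeR 4.0.16 in R 4.3.3 (quasi-likelihood F-test, TMM, filterByExpr, Benjamini-Hochberg adjustment over all genes tested, threshold 0.05). The SE is the absolute log2 difference over the square root of F. The library was the replicate. The labels do not tie libraries to animals, litters or batches, so p-values rest only on the spread between these libraries, which may be technical. The fit moderates the spread of each gene by that of the other genes, so a p-value does not measure the gene's own spread alone. The class comparisons use the same 4 libraries and are not independent of each other. All 10 members were named, and of each list the genes past the threshold, or else the 3 with the lowest p, except that some list genes are not reported here. CPM here means counts of a member scaled to the library or class total. The tests were checked on simulated data with the same set spread for every gene. That check does not cover the spread seen between these libraries. Alternatives were DESeq2 1.42.0, other scaling, filters and clusterings, and each library left out.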

Additional observations from a re-analysis of the deposited data

Results flagged for a closer look

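The genotype effect on Sparcl1 differed between cell classes by the test of the class-by-genotype term. It was larger in radial-glia-like than in excitatory-neuron-like cells by 1.57 on the log2 scale, with Sparcl1 higher in both COP1 KO libraries in the former and lower in both in the latter. It was also larger in radial-glia-like than in oligodendrocyte-precursor-like cells, by 1.59 on the log2 scale, a call that was lost without COP1 KO 1 and without COP1 KO 2. The genotype effect on Gja1 was larger in radial-glia-like than in excitatory-neuron-like cells by 0.94 on the log2 scale. Gja1 was higher in both COP1 KO libraries in radial-glia-like cells and lower in both in excitatory-neuron-like cells, although neither difference passed within its own class.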

How the results depend on the processing

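Of 1093 alternative values over 164 results, 973 kept their direction and their side of the threshold or stayed within the spread, and 49 changed sign. The counts of members past the threshold that changed by over 1.5 times were as follows. In whole-library sums the count went from 0 to 3 by DESeq2 and to 1 in neural cells only, and to between 0 and 3 with a library left out. In excitatory-neuron-like cells it was 0 to 1 with a library left out. In intermediate-progenitor-like cells it went from 1 to 3 with no filter on low counts, 0 with the members kept among the variable genes, 2 when clustered without the genes called in any class, 0 at resolution 0.5, 5 at resolution 2.0 and 2 with no doublet removal, and to between 0 and 3 with a library left out. With no filter on low counts it was 2 in ganglionic-eminence-progenitor-like and 1 in oligodendrocyte-precursor-like cells, where it was 0 to 2 with a library left out. The members whose genotype effect differed between radial-glia-like and oligodendrocyte-precursor-like cells were 0 to 1 with a library left out. The causes were not tested. In radial-glia-like cells the count stayed between 4 and 7 over all 16 alternatives. A left-out library leaves a genotype with 1 sample, which is then assumed to vary like the others.
Changes of sign, as log2 differences, were as follows. In whole-library sums Apoe was -0.032 in neural cells only. In radial-glia-like cells Slc1a2 was -0.12 at resolution 0.5 and Apoe 0.0090 in cluster 16 alone. In excitatory-neuron-like cells Apoe was 0.017 when clustered without the called genes, 0.088 at resolution 0.5 and 0.15 at resolution 2.0, where Aldoc was 0.10 and Slc1a2 0.35. In intermediate-progenitor-like cells Aldoc was 0.85 at resolution 2.0. Apoe was -0.0042 in cortical-interneuron-like cells with no doublet removal and 0.025 in striatal-projection-neuron-like cells with the members kept. In oligodendrocyte-precursor-like cells Aldh1l1 was 0.046 with no filter, and Gja1 was -0.25 with the members kept, -0.78 without the called genes and -0.22 at 1000 or more genes per cell. In the HET libraries alone, against radial-glia-like cells, Sparcl1 in excitatory-neuron-like cells was 0.15, and Aldh1l1 and Slc1a2 in oligodendrocyte-precursor-like cells were 0.40 and 0.48. The difference in the share of radial-glia-like cells was -0.029 points for Aqp4 after thinning to 1000 and -2.15 points for Clu without thinning. With a library left out, Gja1 ran from -0.087 to 0.44 in whole-library sums, and in radial-glia-like cells Slc1a2 from -0.11 to 0.31 and Apoe from -0.79 to 0.12. In excitatory-neuron-like cells Aldoc ran from -0.29 to 0.16, Slc1a3 from -0.098 to 0.28 and Apoe from -0.35 to 0.12, and in intermediate-progenitor-like cells Slc1a2 from -0.17 to 0.26. Apoe and Clu ran from -0.048 to 0.42 and from -0.028 to 0.59 in cortical-interneuron-like cells, and Apoe from -1.27 to 0.21 in striatal-projection-neuron-like cells. In oligodendrocyte-precursor-like cells Slc1a3 ran from -0.081 to 0.50, Apoe from -1.91 to 0.22, Clu from -2.58 to 0.14, Aldh1l1 from -0.44 to 0.26 and Sparcl1 from -0.54 to 0.17. The genotype effect in radial-glia-like minus excitatory-neuron-like cells ran from -0.59 to 0.11 for Apoe, -0.25 to 0.23 for Clu, -0.19 to 0.49 for Sparc, -0.30 to 0.047 for Aldh1l1 and -1.48 to 0.51 for Aqp4. That in radial-glia-like minus oligodendrocyte-precursor-like cells ran from -0.26 to 0.20 for Slc1a3, -0.25 to 2.49 for Aqp4, -0.93 to 1.72 for Apoe and -0.36 to 0.25 for Aldoc. None of these had passed the threshold in the reported fit, except the class differences of Sparcl1 and Aldh1l1 against radial-glia-like cells.
No paired analysis was possible because the labels give no replicate numbers, and the numbers printed here only name the libraries. The oligodendrocyte-precursor-like class was not found at resolution 0.5, so no value is given there. Alternatives without cells of 1% or more hemoglobin counts were chosen after seeing the data and changed no count of members. Aqp4 had 57 counts in all radial-glia-like cells together, and its SE there (0.402) was the largest of the 10 members.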

Other observations

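A small unnamed cluster (cluster 22), with 23 and 25 cells in HET and 36 and 31 in COP1 KO, had intermediate progenitor and radial glia markers at similar scores and was led by Thrsp, Tesc, Sp5, Gfap and Wnt8b, a gene of the cortical hem and hippocampal primordium. Its members were described after their values were seen and without a test. Slc1a2 was at 206 and 215 CPM in HET and at 196 and 221 CPM in COP1 KO, where the non-dividing radial-glia-like cluster had 39.8 to 63.1 CPM. Clu was at 95.9 and 166 CPM in HET and at 392 and 459 CPM in COP1 KO. Aldoc, which was lower in COP1 KO in both radial-glia-like clusters, was at 596 and 591 CPM in HET and at 990 and 753 CPM in COP1 KO here. Sparcl1 and Aldh1l1 were low, at most 18.2 and 27.4 CPM. Gfap was at 41.1 and 82.8 CPM in HET and at 319 and 302 CPM in COP1 KO.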
